A study of Mus with 8 samples.

Results

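Mesothelium is the flat cell layer of the serosa, the outer surface of the uterus and other organs of the body cavity. The genes described here are 8 that mark this layer: Wt1, Bnc1, Msln, Muc16, Upk1b, Upk3b, Lrrn4 and Gpm6a. They were taken by symbol from a list drawn up when earlier results of these data were known, and all 8 were found among the 31269 gene symbols of the count table. Each passed the filter on low counts, which left 17629 genes tested. RNA was sequenced from mouse uterus at pseudopregnancy day 6, in 4 libraries labelled as having a myometrial deficiency of the progesterone receptor (PGR) and in 4 control libraries. The labels place the tissue around implantation sites although pseudopregnancy, the state after a sterile mating, has no embryos. The sources used here give no allele, Cre driver, strain or age for either group, nor do they say whether the libraries of a group are separate animals. The p-values therefore cover the library-to-library spread, which may be technical.

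Mesothelial cells line the peritoneal cavity, secrete a lubricating fluid and carry a coat of surface glycoproteins that lets organs slide past each other. They arise from mesoderm but form an epithelial sheet with keratins and microvilli, and in the uterus they lie directly on the outer muscle layer. None of the 8 genes belongs to mesothelium alone. In the mouse uterus Wt1 is also known from endometrial stromal cells, several of the surface genes are also made by other epithelia, and Gpm6a is also a gene of neurons.

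Total counts ran from 70296369 to 72364750 per library. Levels are given as counts scaled to library size (CPM), with library sizes adjusted by the TMM method, and differences as log2 of the labelled deficient group over the controls, from edgeR's quasi-likelihood test fitted to all 17629 genes, with Benjamini-Hochberg adjustment over all of them. Pgr, the targeted gene, was at 177 ± 12.1 CPM in the libraries labelled deficient and at 156 ± 22.8 CPM in the controls (SD, n = 4 each), a log2 difference of 0.18 ± 0.11 (SE, adjusted p = 0.338), so the group is named here by its label. The label names the myometrium, while the RNA came from uterus in bulk, so these values do not give Pgr in the muscle alone. A library stood apart among the controls, though not by much for every gene. Control library 4 was the highest of the 8 libraries for all 8 genes. It was at 2.19 times the next control for Msln, but at 1.01 times for Wt1 and 1.004 times for Gpm6a. In the other group, libraries 2 and 3 labelled deficient had the most epithelial RNA, at 4320 and 3176 CPM summed over 16 epithelial markers, with 1962 and 1894 CPM in libraries 1 and 4 labelled deficient, against 1750 to 1987 CPM in the controls. Results for the 8 genes are therefore also given without control library 4 and without libraries 2 and 3 labelled deficient. Tissue was measured in bulk, so fewer mesothelial cells, less RNA per cell and changes in other cells that express these genes cannot be told apart.

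The 8 genes showed 2 patterns, sorted after their values were seen. Wt1 and Upk1b were at about 0.6 of the control level in the libraries labelled deficient, and for these genes no library of one group reached into the other. Msln, Upk3b, Lrrn4, Muc16 and Bnc1 varied more among the 4 controls than between the groups, with control library 4 high and control library 3 low, and Gpm6a lay between. No gene passed the test in edgeR: 0 of the 8 had an adjusted p under 0.05, as did 0 percent of all genes tested. An unadjusted p under 0.05 was found for 3 of the 8 genes, all 3 lower in the libraries labelled deficient, where 24.8 percent of all genes tested had one in either direction and 11.8 percent had one in that direction. With 1 library left out at a time, such a p was found for 2 to 5 of the 8 genes. Over all genes it was found for 2896 to 5471, against 4372 in the full set. Without control library 4 it was found for 2 of the 8 genes and for 2896 of 17824 genes tested. Without control library 3 it was found for 5 of the 8 and for 3567 of 17812.

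**Figure D1:**
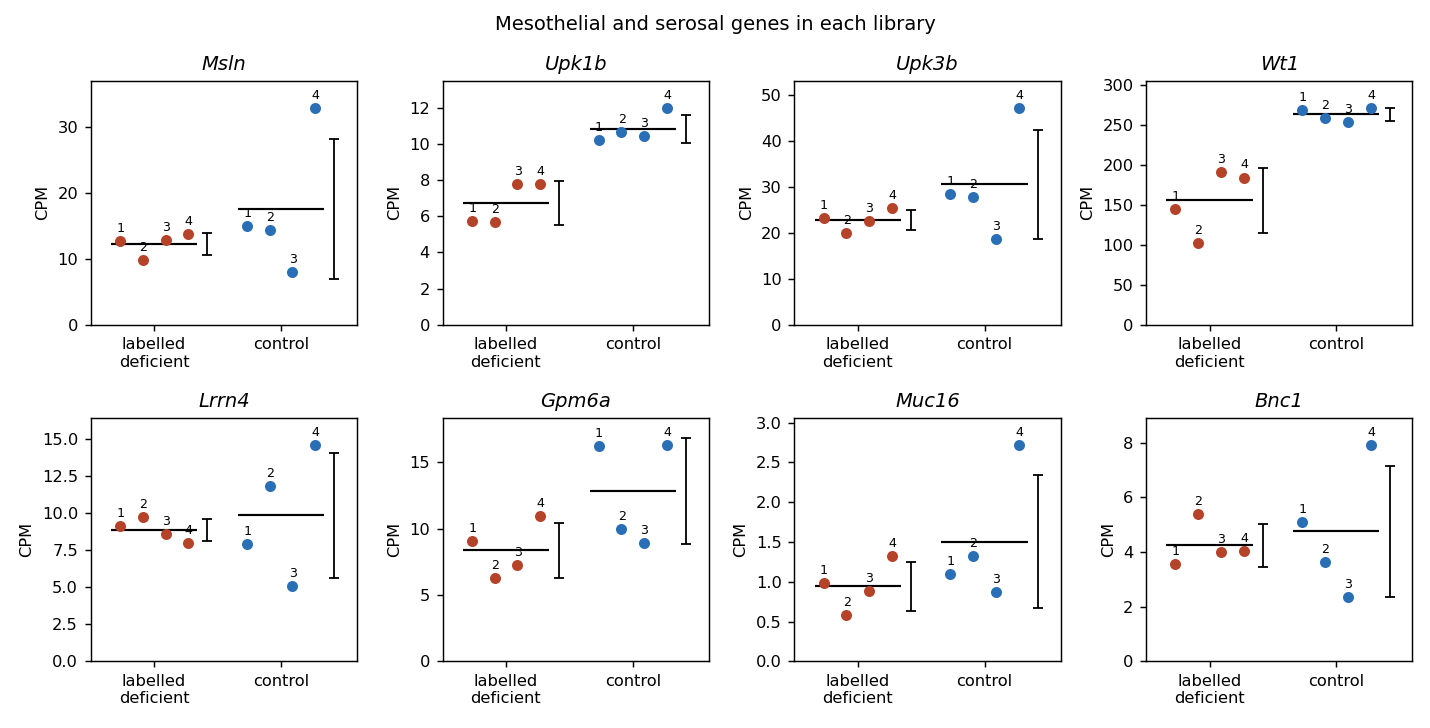
CPM of each of the 8 genes (vertical axis, from 0) in the 4 libraries labelled deficient and the 4 controls, each point marked with its library number, with the group mean as a line and the SD as a bar. For Wt1 and Upk1b the groups do not overlap, and control library 4 is the highest point in every panel.

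Wt1 encodes a zinc finger transcription factor needed for the mesothelium and for urogenital organs. The gene spans bases 105126529 to 105173614 of chromosome 2 (GRCm38.p6, the assembly of mm10, as are all positions here). Its level was 145, 103, 191 and 184 CPM in labelled-deficient libraries 1 to 4, against 268, 259, 254 and 271 CPM in control libraries 1 to 4. The controls lay within 1.07 times of each other, while the libraries labelled deficient spread over 1.86 times, with library 2 lowest. The means were 156 ± 40.7 CPM in the libraries labelled deficient and 263 ± 7.89 CPM in the controls (SD, n = 4 each). This gave a log2 difference of -0.76 ± 0.18 (SE), a ratio of 0.591 with a 95% interval from 0.446 to 0.785. The adjusted p was 0.0912 in edgeR and 0.0941 in limma-voom, and 0.00273 in DESeq2, which called the gene.

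Without the libraries that stood apart the Wt1 difference was of like size. It was -0.75 ± 0.20 without control library 4 and -0.67 ± 0.10 without libraries 2 and 3 labelled deficient (SE; edgeR adjusted p = 0.252 and 0.133). DESeq2 called Wt1 in both reduced sets as well, with an adjusted p of 0.0256 without control library 4 and of 3.83e-06 without libraries 2 and 3 labelled deficient. Library 2 labelled deficient, the lowest for Wt1, also had the highest summed level of epithelial markers.

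The nearest tested neighbour of Wt1 is its opposite-strand transcript Wt1os, whose RefSeq span on chromosome 2, from 105076538 to 105126510, ends 18 bases before that of Wt1. Wt1os was singled out after its values were seen. It was at 10.4, 8.34, 14.8 and 9.44 CPM in labelled-deficient libraries 1 to 4, against 23.97, 19.7, 18.2 and 17.6 CPM in control libraries 1 to 4. These values did not overlap either, and library 2 labelled deficient was the lowest for both transcripts. Its log2 difference was -0.89 ± 0.19 (SE; adjusted p = 0.0906 in edgeR, 0.000984 in DESeq2). The 2 RefSeq spans do not overlap, and neither the annotation nor the strand setting behind the counts is stated in the labels or notes used here. Rcn1, the next tested gene on the other side of Wt1, was at 0.30 ± 0.14 (adjusted p = 0.224).

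Bnc1 encodes basonuclin 1, a zinc finger protein of mesothelium, germ cells and stratified epithelia, and lies on chromosome 7 from 81966657 to 81992299. It was at 3.57, 5.38, 4.00 and 4.02 CPM in labelled-deficient libraries 1 to 4, against 5.10, 3.64, 2.35 and 7.93 CPM in control libraries 1 to 4. All 4 libraries labelled deficient lay inside the control range. The log2 difference was -0.16 ± 0.35 (SE; 95% interval -0.97 to 0.64; adjusted p = 0.791), and it was 0.19 ± 0.29 without control library 4. Library 2 labelled deficient, the lowest library for Wt1, was the highest of its group for Bnc1.

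Msln and Muc16 encode partners at the cell surface: mesothelin, a glycoprotein held by a lipid anchor, binds mucin 16, the large mucin that carries the CA125 antigen. Msln (chromosome 17, 25748613 to 25754378) was at 12.7, 9.86, 12.9 and 13.7 CPM in labelled-deficient libraries 1 to 4, against 15.1, 14.4, 8.03 and 32.9 CPM in control libraries 1 to 4. Control library 4 was at 2.19 times the next control and control library 3 was the lowest library of all 8, so that every library labelled deficient lay between controls. The log2 difference of Msln was -0.52 ± 0.38 (SE; 95% interval -1.39 to 0.35; adjusted p = 0.417), against -0.03 ± 0.24 without control library 4.

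Muc16 (chromosome 9, 18495445 to 18674821) had few counts, 39 to 193 per library. It was at 0.981, 0.578, 0.880 and 1.33 CPM in labelled-deficient libraries 1 to 4, against 1.10, 1.33, 0.876 and 2.72 CPM in control libraries 1 to 4. Library 2 labelled deficient was the lowest, and the groups overlapped. The log2 difference was -0.68 ± 0.41 (SE; 95% interval -1.61 to 0.25; adjusted p = 0.325) and -0.23 ± 0.32 without control library 4. The Muc16 interval is the widest of the 8 genes and holds both the Wt1 difference and 0.

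Uroplakins are membrane proteins first known from the bladder lining, where a tetraspanin uroplakin pairs with a single-pass one. Upk1b, a tetraspanin, lies on chromosome 16 from 38773182 to 38800203. Its level was 5.71, 5.68, 7.79 and 7.80 CPM in labelled-deficient libraries 1 to 4, against 10.2, 10.6, 10.4 and 12.0 CPM in control libraries 1 to 4. The highest library labelled deficient lay well under the lowest control. The means were 6.74 ± 1.21 CPM in the libraries labelled deficient and 10.8 ± 0.790 CPM in the controls (SD, n = 4 each). For Upk1b the log2 difference was -0.68 ± 0.15 (SE), a ratio of 0.624 with a 95% interval from 0.491 to 0.791. The adjusted p was 0.0906 in edgeR, 0.0915 in limma-voom and 0.000622 in DESeq2. The difference was -0.64 ± 0.17 without control library 4 and -0.68 ± 0.17 without libraries 2 and 3 labelled deficient (SE; edgeR adjusted p = 0.252 and 0.149), and DESeq2 called it in both, with adjusted p of 0.0131 and 0.0046.

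Upk3b, a single-pass uroplakin used as a mesothelial marker in mouse, lies on chromosome 5 from 136038496 to 136044993. It was at 23.2, 20.02, 22.6 and 25.4 CPM in labelled-deficient libraries 1 to 4, against 28.5, 27.9, 18.7 and 47.2 CPM in control libraries 1 to 4. Control library 3 lay under every library labelled deficient, while the other 3 controls lay above them all. Its log2 difference was -0.42 ± 0.25 (SE; 95% interval -0.99 to 0.15; adjusted p = 0.318), and -0.14 ± 0.17 without control library 4.

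Lrrn4 and Gpm6a encode membrane proteins found in nerve tissue as well as in mesothelium. Lrrn4, a leucine-rich repeat protein (chromosome 2, 132866686 to 132894010), was at 9.16, 9.76, 8.60 and 7.98 CPM in labelled-deficient libraries 1 to 4, against 7.91, 11.9, 5.11 and 14.6 CPM in control libraries 1 to 4. The libraries labelled deficient again lay inside the control range, and the log2 difference was -0.16 ± 0.30 (SE; 95% interval -0.83 to 0.52; adjusted p = 0.765), or 0.09 ± 0.27 without control library 4. The Lrrn4 span overlaps that of Crls1, which ends at base 132866786 and was at 0.20 ± 0.08 (SE, adjusted p = 0.176). How reads from the shared stretch were counted is not stated.

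Gpm6a, a proteolipid of the neuronal surface (chromosome 8, 54779434 to 55060878), was at 9.05, 6.29, 7.24 and 10.97 CPM in labelled-deficient libraries 1 to 4, against 16.3, 9.96, 8.91 and 16.3 CPM in control libraries 1 to 4. Libraries 2 and 3 labelled deficient lay below all controls, and libraries 1 and 4 lay among the controls. The log2 difference was -0.62 ± 0.26 (SE; 95% interval -1.22 to -0.02; adjusted p = 0.192). It was -0.49 ± 0.28 without control library 4 and -0.36 ± 0.29 without libraries 2 and 3 labelled deficient.

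**Figure D2:**
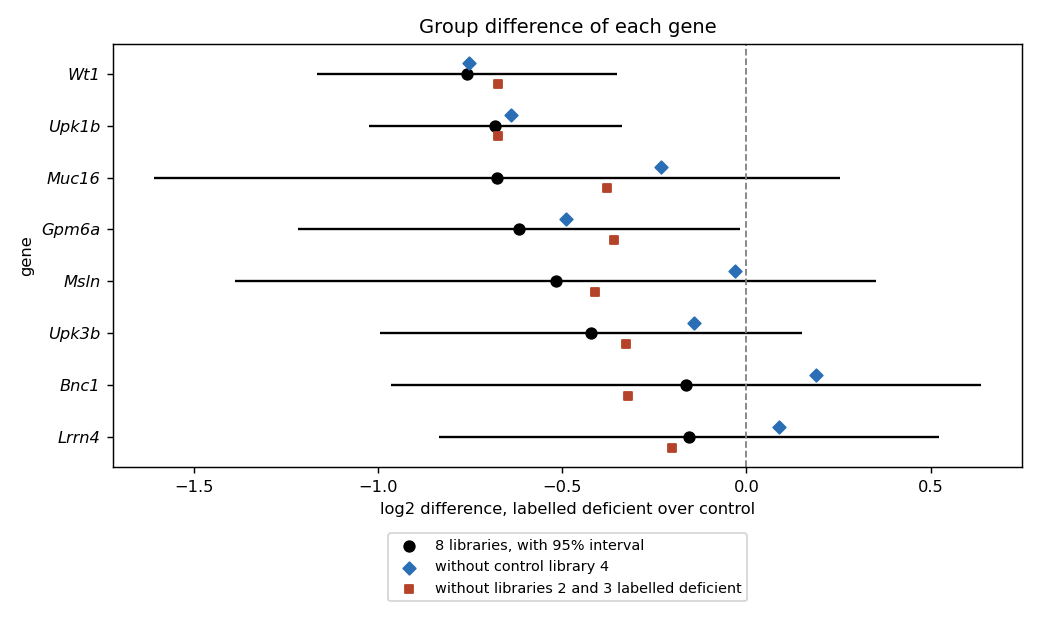
Log2 difference of the labelled deficient group over the controls (horizontal axis) for each gene, as a black point with its 95% interval from the edgeR fit to 8 libraries, a blue diamond for the fit without control library 4 and a red square for the fit without libraries 2 and 3 labelled deficient. Wt1 and Upk1b stay between -0.76 and -0.64 in all 3 fits, and Lrrn4 and Bnc1 are at 0.09 and 0.19 without control library 4.

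As a group, 8 of 8 genes had a negative log2 difference, with a median of -0.57, where 48 percent of all genes tested had a negative one and the median of all was 0.01. This count changed with 1 library: without control library 4 the difference was positive for Lrrn4 and Bnc1 and the median was -0.19. Control library 4 was set apart for being the highest for all 8 genes, so leaving it out moved each difference upward. With control library 3 left out instead, the median was -0.74. The differences were then -0.87 for Muc16, -0.78 for Wt1 and -0.76 for Msln and Gpm6a. For Upk1b, Upk3b, Bnc1 and Lrrn4 they were -0.71, -0.61, -0.40 and -0.38. Without libraries 2 and 3 labelled deficient all 8 differences were negative, at -0.41 for Msln, -0.38 for Muc16, -0.33 for Upk3b, -0.32 for Bnc1 and -0.20 for Lrrn4 beside the values already given. The groups did not overlap for 2 of the 8 genes, Wt1 and Upk1b, where 8.66 percent of all genes tested lay wholly below the controls and 16.3 percent did not overlap in either direction. DESeq2 called the same 2 genes, where it called 6.7 percent of all genes tested as lower and 14.1 percent in either direction, and limma-voom called 0 of the 8 and 2 of all genes (0.0113 percent). With 8 genes these shares are coarse, and no test set the counts against those of other genes.

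The genes also differed in their spread within a group. Between the highest and the lowest control the ratio was 4.10 for Msln, 3.37 for Bnc1, 3.11 for Muc16, 2.87 for Lrrn4, 2.53 for Upk3b and 1.83 for Gpm6a. It was 1.17 for Upk1b and 1.07 for Wt1, against a median of 1.27 over all genes tested. The same ratio among the libraries labelled deficient was 1.39 for Msln, 1.51 for Bnc1, 2.29 for Muc16, 1.22 for Lrrn4, 1.27 for Upk3b, 1.74 for Gpm6a, 1.37 for Upk1b and 1.86 for Wt1, against a median of 1.44 over all genes. Wt1 and Upk1b were thus more even among the controls than among the libraries labelled deficient. Msln, Bnc1, Muc16, Lrrn4, Upk3b and Gpm6a had the wider range in the controls.

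By library, control library 4 stood at 2.64 times the mean of the other 3 controls for Msln, 2.47 for Muc16, 2.14 for Bnc1, 1.89 for Upk3b, 1.76 for Lrrn4, 1.39 for Gpm6a, 1.15 for Upk1b and 1.04 for Wt1. Control library 3 was the lowest of all 8 libraries for Msln, Upk3b, Lrrn4 and Bnc1, and library 2 labelled deficient was the lowest for Wt1, Upk1b, Gpm6a and Muc16. The smooth muscle markers, 10 genes of the wall that the mesothelium covers, summed to 7961 CPM in control library 4, the highest of the 8 libraries, and to 6483 CPM in control library 3, against 7616 and 5521 CPM in control libraries 2 and 1. Their part in the high and low mesothelial values was not tested.

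**Figure D3:**
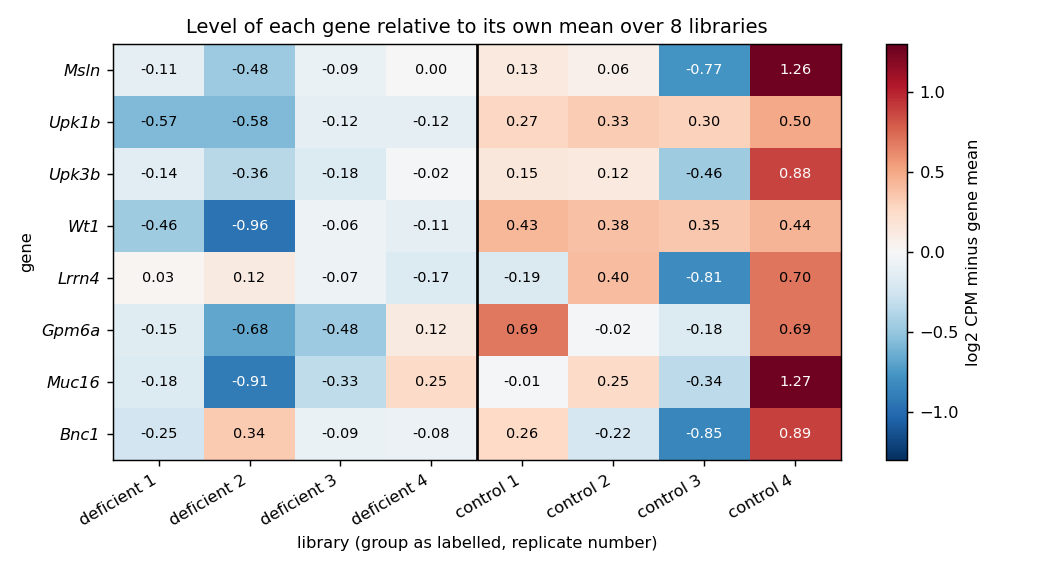
Log2 CPM of each gene (rows) minus that gene's mean over the 8 libraries (columns, labelled deficient left of the line and control right of it), with red above and blue below the mean. Control library 4 is above the mean for all 8 genes, control library 3 is below it for 6 genes and above it for Wt1 and Upk1b.

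Ratios of 2 genes within a library do not depend on its scaling or depth. The ratio of Msln to Upk3b counts was 0.548, 0.493, 0.570 and 0.541 in labelled-deficient libraries 1 to 4, against 0.529, 0.515, 0.431 and 0.698 in control libraries 1 to 4. All 4 libraries labelled deficient lay inside the control range, which covered 1.62 times, less than the range of either gene alone. The ratio of Upk1b to Upk3b was 0.246, 0.284, 0.344 and 0.308 in labelled-deficient libraries 1 to 4, against 0.359, 0.381, 0.559 and 0.254 in control libraries 1 to 4. Control libraries 1, 2 and 3 lay above all libraries labelled deficient and control library 4 lay among them. The ratio of Wt1 to Msln was 11.4, 10.4, 14.8 and 13.4 in labelled-deficient libraries 1 to 4, against 17.8, 18.0, 31.7 and 8.23 in control libraries 1 to 4. For Wt1 over Msln, control library 4 had a value under every library labelled deficient, and neither of these last 2 ratios kept the groups apart.

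**Figure D4:**
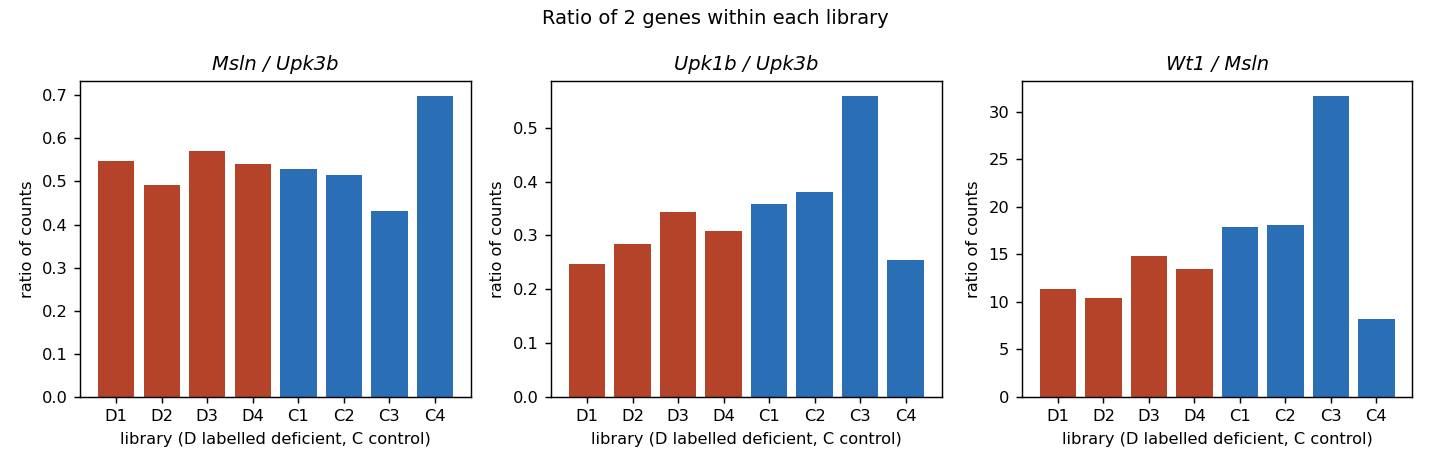
Ratio of the counts of 2 genes (vertical axes, from 0) in each library, with the libraries labelled deficient (D1 to D4) in red and the controls (C1 to C4) in blue. Msln over Upk3b runs from 0.431 to 0.698, while Wt1 over Msln runs from 8.23 in control library 4 to 31.7 in control library 3.

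A longer list of 20 genes linked with mesothelium did not share one direction. All 20 were tested, 10 were positive and 10 negative, the median log2 difference was -0.02, and 0 passed the test in edgeR. DESeq2 called 3 of them, Pdpn and Pkhd1l1 as lower and Aldh1a2 as higher (adjusted p = 2.15e-05, 0.000798 and 0.00785), where it called 7.41 percent of all genes tested as higher. Without control library 4 DESeq2 called Pdpn and Pkhd1l1, and without libraries 2 and 3 labelled deficient it called Pdpn alone of this list. Pdpn, podoplanin of mesothelium and lymphatic vessels, was at 28.8, 29.6, 27.8 and 32.2 CPM in labelled-deficient libraries 1 to 4, against 38.5, 37.6, 39.4 and 37.2 CPM in control libraries 1 to 4, without overlap (-0.37 ± 0.07 SE, edgeR adjusted p = 0.0906). Pkhd1l1, a fibrocystin relative, was at 8.53, 5.95, 6.30 and 10.5 CPM in labelled-deficient libraries 1 to 4, against 14.9, 37.5, 13.4 and 48.4 CPM in control libraries 1 to 4, also without overlap (-1.87 ± 0.44, adjusted p = 0.093). Aldh1a2, which makes retinoic acid in mesothelium and in stroma, was at 135, 490.2, 288 and 121 CPM in labelled-deficient libraries 1 to 4, against 93.3, 110.005, 98.0 and 72.5 CPM in control libraries 1 to 4. It lay wholly above the controls (1.47 ± 0.43, edgeR adjusted p = 0.111), most of all in libraries 2 and 3 labelled deficient, and its difference was 0.46 without these and 0.96 without library 2 alone. Krt8, a keratin that all simple epithelia share with mesothelium, was at 0.84 ± 0.32 (adjusted p = 0.166), with the 2 highest values in libraries 2 and 3 labelled deficient, and at 0.29 without them.

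In control library 4 the genes of this list went both ways. Calb2, Nkain4, Prg4, Slpi and Pkhd1l1 had their highest value of the 8 libraries there. Aldh1a2, Krt8, Krt19, Ezr and Has1 had their lowest value there. These genes were singled out for this after their values were seen. Nkain4, a mesothelial gene in mouse, was at 1.64, 1.25, 1.31 and 1.37 CPM in labelled-deficient libraries 1 to 4, against 1.52, 1.82, 1.19 and 2.82 CPM in control libraries 1 to 4. Prg4, the lubricin gene, was at 0.940, 1.07, 1.28 and 1.41 CPM in labelled-deficient libraries 1 to 4, against 1.27, 1.02, 0.794 and 3.10 CPM in control libraries 1 to 4. For both, control library 3 was the lowest of the 8 libraries, as it was for Msln and Upk3b. Calb2, calretinin, a marker of human mesothelium, was low in every library, at 0.326 to 0.885 CPM in the libraries labelled deficient. In control libraries 1 to 4 it was at 0.234, 0.776, 1.40 and 1.44 CPM, with control library 1 and not control library 3 the lowest.

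Relatives of the 8 genes went both ways. Of 13 relatives, 12 were tested, 7 were positive and 5 negative, the median was 0.20 and 0 passed the test in edgeR. DESeq2 called 3 of them, all as higher: Upk2, Muc1 and Muc4 (adjusted p = 0.00034, 0.00202 and 0.00877). Of all genes tested 7.41 percent were called as higher. DESeq2 called 2 relatives, Upk2 and Muc1, without control library 4 and 0 without libraries 2 and 3 labelled deficient. Mslnl, the mesothelin-like gene, ends 258 bases before Msln on chromosome 17. It was at 0.525, 0.608, 0.624 and 1.122 CPM in labelled-deficient libraries 1 to 4, against 1.25, 1.23, 1.03 and 2.04 CPM in control libraries 1 to 4 (-0.94 ± 0.32 SE, adjusted p = 0.138). As for Msln, control library 4 was the highest, but for Mslnl library 4 labelled deficient was the one library of its group to reach into the control range. The mucin genes Muc1 (2.21 ± 0.61, adjusted p = 0.105) and Muc4 (3.94 ± 1.205, adjusted p = 0.117) had positive differences, where that of Muc16 was negative. Muc1 was at 101, 589.96, 312 and 84.9 CPM in labelled-deficient libraries 1 to 4, against 37.9 to 74.9 CPM in the controls, and its difference was 0.67 without libraries 2 and 3 labelled deficient and 1.501 without library 2 alone. Muc4 was at 712 and 264 CPM in libraries 2 and 3 labelled deficient and at 17.0 and 14.5 CPM in libraries 1 and 4, against 13.5 to 21.995 CPM in the controls, and its difference was -0.06 without libraries 2 and 3.

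The other uroplakins that were tested had positive differences. Upk1a, the tetraspanin relative of Upk1b, was at 0.71 ± 0.33 (SE, adjusted p = 0.218). Upk2 had 57, 53, 57 and 12 counts in labelled-deficient libraries 1 to 4, against 6, 6, 5 and 1 counts in control libraries 1 to 4 (3.31 ± 0.63 SE, adjusted p = 0.0906 in edgeR), and 2.90 without libraries 2 and 3 labelled deficient. Upk3a had 0 to 9 counts in any library and was not tested. The list of 6 urothelial markers had 4 tested genes, 3 positive and 1 negative, with a median of 0.37, 0 past the test in edgeR and 1, Upk2, called by DESeq2. Krt5, a keratin of stratified epithelia on this list that was singled out after its counts were seen, was not tested because it had 6875 counts in library 2 labelled deficient and 2 to 49 in the other 7 libraries.

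Markers of the other cell types the tissue could hold gave the following beside these genes. For the DESeq2 calls below, the share over all genes tested was 14.1 percent, with 6.7 percent lower and 7.41 percent higher. Of 10 stromal fibroblast markers 7 were negative and 3 positive, with a median of -0.08 and 0 past the test in edgeR, and their summed level was 8038 to 9241 CPM in the libraries labelled deficient and 6762 to 8143 CPM in the controls. Hand2, a transcription factor of endometrial stroma, lay wholly below the controls as Wt1 did (-0.75 ± 0.25 SE, adjusted p = 0.134), while the collagens Col1a1 (0.67 ± 0.21, adjusted p = 0.123) and Col3a1 (0.33 ± 0.11, adjusted p = 0.134) had positive differences. DESeq2 called these 3 (adjusted p = 0.0369, 0.0258 and 0.04), but called 0 stromal markers without control library 4 and 0 without libraries 2 and 3 labelled deficient, where Hand2 was at -0.39 in edgeR. Pdgfra, the receptor that defines uterine fibroblasts and was singled out after its value was seen, was at -0.05 ± 0.08 (adjusted p = 0.753). Of 16 epithelial markers 12 were positive and 4 negative, with a median of 0.64 and 0 past the test in edgeR. Elf3 (2.55 ± 0.72, adjusted p = 0.107), Grhl2 (0.98 ± 0.26, adjusted p = 0.102), Cldn7 (0.86 ± 0.28, adjusted p = 0.128) and Esrp1 (0.66 ± 0.25, adjusted p = 0.165) had the smallest edgeR p-values among them. Without libraries 2 and 3 labelled deficient these differences were 0.52 for Elf3, 0.45 for Grhl2, 0.33 for Cldn7 and 0.091 for Esrp1. DESeq2 called Grhl2, Elf3 and Cldn7 as higher in the 8 libraries (adjusted p = 0.00722, 0.0108 and 0.028), Grhl2 and Elf3 without control library 4 and 0 epithelial markers without libraries 2 and 3 labelled deficient. The part of the stroma or the epithelium in the Wt1 and Upk1b values was not tested.

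Of 10 smooth muscle markers 10 were negative, with a median of -0.24, where 48 percent of all genes tested were negative. Of these markers 0 passed the test in edgeR or DESeq2. An unadjusted edgeR p under 0.05 was found for 3, all lower in the libraries labelled deficient. Of all genes tested 11.8 percent had one in that direction and 24.8 percent in either. Smtn (-0.37 ± 0.13 SE, adjusted p = 0.138) and Lmod1 (-0.45 ± 0.15, adjusted p = 0.14), both of the contractile apparatus, led this list. Their summed level was 5482 to 6291 CPM in the libraries labelled deficient and 5521 to 7961 CPM in the controls. Endothelial markers had 2 positive and 6 negative differences among 8 tested genes, a median of -0.19 and 0 past the test in edgeR or DESeq2, with 0 at an unadjusted edgeR p under 0.05. Vwf, the von Willebrand factor gene, was called as higher by DESeq2 without libraries 2 and 3 labelled deficient (0.97, adjusted p = 4.58e-07). Nerve and Schwann cell markers, which could bear on Gpm6a, had 4 positive and 4 negative differences among 8 tested genes of 11 (median -0.08, 0 past the test in edgeR and 1, Uchl1, called as lower by DESeq2, at adjusted p = 0.0333), and summed to 42.1 to 78.0 CPM in the libraries labelled deficient and 45.8 to 54.6 CPM in the controls.

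Markers of tissue next to the uterus were uneven. The fat cell hormone gene Adipoq had 0 to 4 counts in any library, and 3 of 9 adipocyte markers were tested, all 3 positive with a median of 0.91 and 0 past the test in edgeR. DESeq2 called 1 of them, Pparg, a transcription factor of fat cells, as higher (0.78, adjusted p = 4.18e-05), and did so in both reduced sets as well. Of 11 ovary and oviduct markers 8 were tested, 3 positive and 5 negative, with a median of -0.09 and 0 past the test in edgeR, while DESeq2 called 1, Inha, as lower (-0.49, adjusted p = 0.0112). These markers summed to 243 to 497 CPM in the libraries labelled deficient and to 235 to 280.1 CPM in the controls. Fshr, the receptor of granulosa cells, had at most 1 count, whereas Ovgp1, the oviductal glycoprotein gene, singled out after its values were seen, was at 269.9, 21.4, 74.0 and 60.4 CPM in labelled-deficient libraries 1 to 4, against 30.1 to 64.9 CPM in the controls. Their part in the mesothelial values was not tested. Decidual markers had 3 positive and 3 negative differences among 6 tested genes of 8, a median of 0.74 and 0 past the test in edgeR. DESeq2 called 2, Alpl and Bmp8a, as higher (adjusted p = 0.0393 and 0.0237), and 0 in either reduced set. The decidual prolactin gene Prl8a2 had at most 3 counts in any library. In the 2 reduced sets DESeq2 also called 0 of the nerve markers and 0 of the ovary and oviduct markers.

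**Figure D5:**
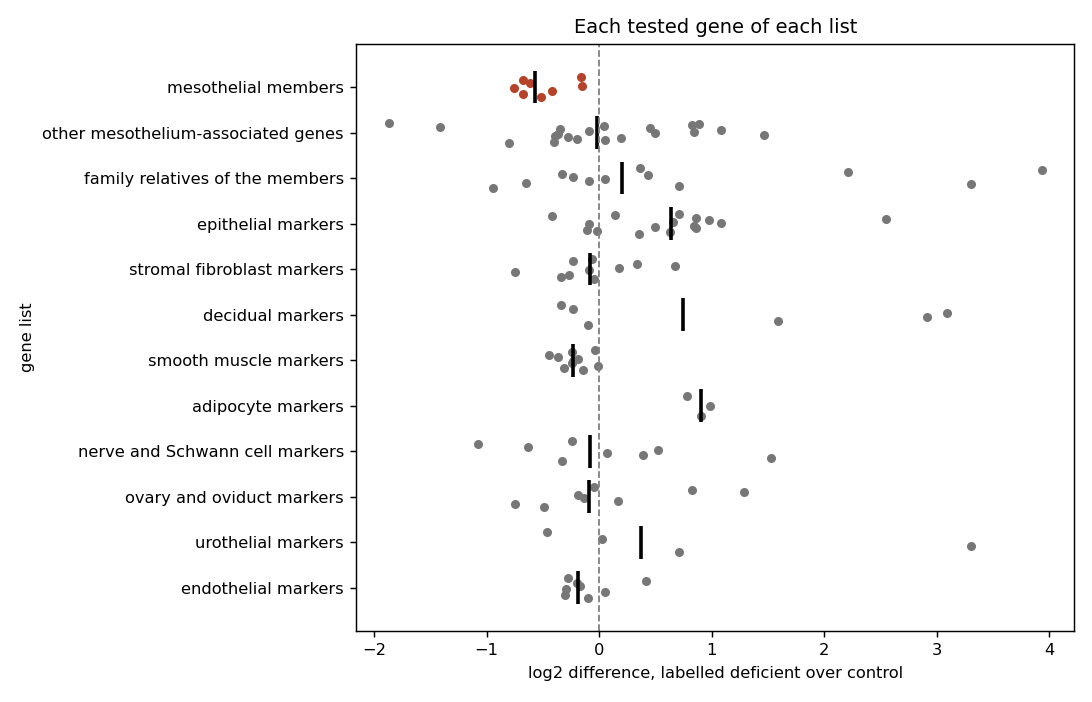
Log2 difference of the labelled deficient group over the controls for each tested gene (points) of the 8 mesothelial genes, in red, and of 11 other lists, in grey, with the median of each list as a black bar. The 8 genes lie between -0.76 and -0.16 with a median of -0.57, and the longer list of mesothelium-associated genes is centred at -0.02.

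Among 15236 other genes with a mean of at least 1 CPM, those whose log2 CPM over the 8 libraries was most like a member gave a further description, with no test. The 8 genes themselves were left out of this search. Msln and Upk3b had a Pearson r of 0.986 with each other, above that of every gene named below for either. Wt1 had an r of 0.955 with Upk1b, 0.725 with Gpm6a, 0.658 with Muc16 and 0.519 with Upk3b. It was 0.421 with Msln, -0.002 with Lrrn4 and -0.036 with Bnc1. The 3 most like Wt1 were Wdr19 (Pearson r = 0.994), Adck3 (0.988) and Car8 (0.985), whose own log2 differences were -0.38, -0.96 and -1.86. For Upk1b they were Syde2 (0.996), Khnyn (0.989) and Fhl1 (0.986), at -0.69, -0.29 and -0.60. For Msln they were Jade3 (0.941), Zfp568 (0.940) and the mesothelial gene Nkain4 (0.928), at -0.14, -0.04 and -0.40. For Upk3b they were Tmem151a (0.962), Jade3 (0.961) and Dis3 (0.961). For Lrrn4 they were Myrf (0.9745), Vps37a (0.953) and Rhbdl1 (0.949). For Gpm6a they were Smc5 (0.988), Rasa3 (0.979) and Zfp219 (0.978). For Muc16 they were Aprt (0.974), Sh3rf1 (0.958) and Tmem151a (0.958), and for Bnc1 they were Snora28 (0.966), Senp6 (0.929) and Suz12 (0.919). Tmem151a and Jade3 each stood on 2 of these lists, and Tmem151a and Myrf were at 1.85 and 1.83 times the mean of the other controls in control library 4. With 8 libraries and this many genes, high values of r are common. The group means were not taken out, so a difference between the groups, or 1 library far from the others, can also raise r.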

How the data were processed

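RNA was extracted from mouse uterus with TRIzol, per the labels' protocols. The tools named were HISAT2 2.2.1 and HTSeq 0.10.0 with the build mm10, per the submitters' processing notes; no setting, strand or annotation is stated. The authors deposited 1 table of whole-number counts per gene symbol, with no normalization, and its columns were matched to sample titles. No 2 libraries were alike within sampling noise (chi-square over its degrees of freedom at least 38.8). Coordinates came from a RefSeq table of GRCm38.p6, in which 22353 symbols and all 8 members were found; no sequences or transcript lengths were used here, so levels are not compared between genes.

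Genes were filtered with filterByExpr and scaled with TMM, and group was tested with edgeR 4.0.16 (R 4.3.3) in all 8 libraries at an adjusted p threshold of 0.05. The SE came from the difference and its F value. DESeq2 1.42.0 and limma-voom (limma 3.58.1) were alternatives, beside other scalings, other filters, robust=TRUE, legacy=FALSE, a replicate block and libraries left out. Members, lists and alternatives were chosen with earlier results of these data known. Genes named are all members, up to 4 genes per list with the smallest p, and the 3 non-member genes most like each member, Pgr, and defining markers at or near 0. All others, among them Wt1os, Rcn1, Crls1, Upk1a, Upk3a, Krt5, Vwf and Ovgp1, were singled out after their values were seen.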

Additional observations from a re-analysis of the deposited data

Results flagged for a closer look

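Of 44 sets of 4 values examined (members, Pgr, Wt1os and summed marker lists, per group), 5 had a library farther from the others than Dixon's critical value allows, and chance alone flags about 1 in 20. None was a member. The longer mesothelium-associated list summed to 1574 CPM in control library 4, under the other controls at 1842 CPM or more, while that library was the highest for all 8 members. Such a sum weighs abundant genes most. Taken gene by gene, as log2 CPM minus the gene's mean, the list's median was 0.034 in control library 4. In control libraries 1 to 3 it was -0.010, 0.119 and -0.080. Library 2 labelled deficient stood above the others of its group for decidual markers (849.4 CPM, next 541.4), adipocyte markers (94.2 CPM, next 39.07) and urothelial markers (116.8 CPM, next 12.54). Library 1 labelled deficient did so for ovary and oviduct markers (496.9 CPM, next 273.7). Each of these sums rested largely on 1 gene. In library 2 labelled deficient, Alpl was at 548.0 CPM of the decidual sum and Lpl at 86.4 CPM of the adipocyte sum. Krt5, of the urothelial list, had 6875 counts there. In library 1 labelled deficient, Ovgp1 was at 269.9 CPM of the ovary and oviduct sum.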

How the results depend on the processing

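Over 22 alternatives, the difference stayed negative in every one for Wt1, Upk1b, Gpm6a, Msln, Upk3b and Muc16, and in 20 for Lrrn4 and Bnc1. Leaving out each library in turn gave -0.38 to 0.089 for Lrrn4, -0.40 to 0.19 for Bnc1, -0.76 to -0.03 for Msln, -0.88 to -0.60 for Wt1 and -0.76 to -0.60 for Upk1b, with control library 4 giving the values nearest or past 0 for Lrrn4, Bnc1 and Msln; the adjusted p of Wt1 and Upk1b then ran up to 0.252. The median of the 8 genes ran from -0.74 to -0.19, that of the longer mesothelium list from -0.10 to 0.065 and that of the urothelial list from 0.32 to 0.87. Genes called ran from 0 to 2 of all tested. Over all genes, edgeR called 0 (4372 at an unadjusted p under 0.05), limma-voom 2, legacy=FALSE 3 and DESeq2 2488 (Wt1 -0.76, Upk1b -0.68). DESeq2 without control library 4 called 927 (Wt1 -0.74, Upk1b -0.63), with Lrrn4 at 0.10, Bnc1 at 0.20 and the median of the 8 genes at -0.18. DESeq2 without libraries 2 and 3 labelled deficient called 1461 (Wt1 and Upk1b both -0.68). In edgeR without those 2 libraries Muc4 was at -0.0596 and medians were -0.17 for the longer mesothelium list, 0.059 for epithelial, -0.21 for decidual and 0.26 for adipocyte markers. The decidual median was -0.11 with a filter of 1 CPM in at least 4 libraries, where fewer genes were tested. Pdgfra ran to 0.0054 without library 4 labelled deficient. Leaving out control libraries 3 and 4 together (0 calls, Wt1 -0.77, Upk1b -0.64), legacy=FALSE and DESeq2 on fewer libraries were chosen after seeing the data and run for the members, Wt1os and the count over all genes, and DESeq2 on fewer libraries also for the calls of each marker list. The causes of the other shifts were not tested.

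With the replicate number as a replicate block, 23 genes were called, none of them a member; Upk2, not called without the block, was past the threshold with it (3.32, adjusted p = 0.0476). Same-numbered libraries deviated together with r = 0.202, 0.236, -0.012 and -0.0779 for numbers 1 to 4, and not every library correlated best with its own number, so the numbers do not show a pairing. Counting depth limits Muc16 most, at 39 to 193 counts per library.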
